A study of Rattus norvegicus with 32 samples.

Results

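The replication-dependent histone genes of the rat were examined in RNA-seq libraries of the nucleus accumbens (NAc), dentate gyrus (DG), hippocampal CA area (CA) and subventricular zone (SVZ). The genes were taken by symbol: 36 of the 28914 gene symbols in the count files begin with Hist, a cluster number and h, and 33 of them had at least 30 reads in total over the 32 samples. Those not kept were Hist2h2aa2 with 29 reads and Hist2h4 and Hist1h4b with 0 reads. Just inside the limit were Hist1h2ba with 54 reads, Hist1h2aa with 77 reads and Hist1h2af with 82 reads. Of the 33 genes, 25 lie on chromosome 17, 5 on chromosome 2, 2 on chromosome 10 and 1 on chromosome 4 of rn6, and 29 have a single exon. By symbol they code for linker histone H1 (6 genes), H2A (12), H2B (10), H3 (3) and H4 (2).

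Replication-dependent histone genes supply the histones that package newly copied DNA. They lie in clusters, have no introns as a rule, and are transcribed mainly in S phase, with NPAT and CASP8AP2 at the clusters. Their mRNAs end in a stem-loop that is bound by SLBP, instead of a poly(A) tail, and are degraded when replication stops. Some members, Hist1h1c among them, are also expressed in cells that have left the cycle. In the adult rodent brain, cells divide mainly in the SVZ and in the subgranular zone of the DG, where new neurons arise.

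The samples came from adult male Sprague-Dawley rats given methamphetamine (METH) at 10 mg/kg or saline (Sal) in 4 intraperitoneal injections spaced 2 h apart, and tissue was taken 24 h after the last one. NAc and SVZ were punched and DG and CA were scooped out, so each sample is a mixture of cells. Each of the 8 groups held 4 samples, and the labels do not say which samples came from the same rats, so p-values measure the spread between these samples. In bulk tissue, fewer cells of a type and less RNA per cell cannot be told apart.

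The libraries held 11094002 to 21869773 counted reads, of which 2146 to 13593 fell on the 33 genes, and 1 read was worth 0.0460 to 0.0940 CPM (counts per 1000000 of a library size scaled by the upper quartile of its gene counts, not of the total). Some libraries stood apart from their labels. SVZ Sal 1, METH 2 and METH 4 had summed levels of 8 markers of striatal medium spiny neurons of 240 to 904 CPM, against 1762 to 6457 CPM in the other SVZ libraries, and summed thalamic markers of 1673 to 2768 CPM, against 124 to 665 CPM. In NAc METH 3 the medium spiny neuron markers summed to 268 CPM, against 1719 to 9071 CPM in the other NAc libraries. Dentate granule neuron markers summed to 212 to 452 CPM in DG Sal and 239 to 775 CPM in DG METH, but also to 242 to 802 CPM in CA Sal. By the file headers, all 8 SVZ libraries came from a folder that holds no other region, so region and folder cannot be told apart for the SVZ. The headers give the 4 SVZ METH libraries only 2 library numbers (METH 1 with METH 2, METH 3 with METH 4), which the labels give as 4 samples. The numbers of DG Sal 1 and 2 and DG METH 1 and 2 are those of the opposite treatment in both the NAc and the CA.

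The promoters of these genes show how the class is built. A promoter from RefSeq (assembly GRCr8, the 250 bases before the gene start) could be matched for 20 of the 33 genes by symbol, chromosome and the distance to a neighbouring histone gene: 6 H1, 6 H2A and 8 H2B genes. The 6 printed here are the most abundant H1 genes, Hist1h1c (chr17:41820454-41820703, minus strand) and Hist1h1e (chr17:41914175-41914424, plus strand), then Hist1h1b (chr17:47421625-47421874, plus strand) and Hist1h1a (chr17:41794869-41795118, minus strand), which are described in the comparisons below, and the H2A gene Hist2h2ac (chr2:186469227-186469476, minus strand) and Hist3h2ba (chr10:44225171-44225420, plus strand), the H2B gene with the smallest difference between the SVZ and the other regions. Each is written 5′ to 3′ on the strand of the gene. Capitals mark the CCAAT box, the TATA box, the octamer and the H1 box on either strand.
Hist1h1c: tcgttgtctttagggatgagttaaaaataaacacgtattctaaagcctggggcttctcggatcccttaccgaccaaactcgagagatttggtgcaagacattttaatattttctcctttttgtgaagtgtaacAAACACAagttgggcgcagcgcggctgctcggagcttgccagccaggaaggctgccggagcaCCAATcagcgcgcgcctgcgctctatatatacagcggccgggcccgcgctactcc
Hist1h1e: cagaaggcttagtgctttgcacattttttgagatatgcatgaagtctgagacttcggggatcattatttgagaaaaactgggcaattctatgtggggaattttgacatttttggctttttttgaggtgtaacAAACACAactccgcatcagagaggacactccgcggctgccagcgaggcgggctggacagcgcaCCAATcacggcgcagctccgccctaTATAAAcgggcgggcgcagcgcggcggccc
Hist1h1b: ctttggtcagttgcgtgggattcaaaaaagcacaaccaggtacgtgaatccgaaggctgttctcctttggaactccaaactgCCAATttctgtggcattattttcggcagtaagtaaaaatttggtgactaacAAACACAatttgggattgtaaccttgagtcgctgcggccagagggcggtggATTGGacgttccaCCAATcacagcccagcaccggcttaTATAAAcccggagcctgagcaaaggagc
Hist1h1a: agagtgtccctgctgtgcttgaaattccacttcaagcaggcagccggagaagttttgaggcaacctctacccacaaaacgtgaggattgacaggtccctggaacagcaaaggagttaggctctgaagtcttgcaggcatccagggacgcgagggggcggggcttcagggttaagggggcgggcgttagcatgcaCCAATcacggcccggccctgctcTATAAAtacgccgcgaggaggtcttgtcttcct
Hist2h2ac: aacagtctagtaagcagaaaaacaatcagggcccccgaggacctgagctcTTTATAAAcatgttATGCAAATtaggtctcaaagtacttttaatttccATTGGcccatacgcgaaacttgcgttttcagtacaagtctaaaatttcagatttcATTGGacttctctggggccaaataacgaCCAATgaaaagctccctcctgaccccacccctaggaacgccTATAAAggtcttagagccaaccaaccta
Hist3h2ba: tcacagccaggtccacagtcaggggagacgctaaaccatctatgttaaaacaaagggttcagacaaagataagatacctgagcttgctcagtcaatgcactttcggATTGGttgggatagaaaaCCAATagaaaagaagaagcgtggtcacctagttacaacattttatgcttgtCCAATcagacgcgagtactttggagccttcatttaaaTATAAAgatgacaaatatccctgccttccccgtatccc

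The motif CCAAT was found in all 20 promoters, against 34.0% of all 33469 promoters in the table. TATAAA was found in 16 of the 20, against 12.9% of all. The octamer ATTTGCAT, a known element of H2B promoters, was found in 9 of the 20, against 1.56% of all, and these were 5 of the 8 H2B genes and 4 of the 6 H2A genes. The element AAACACA, known from H1 promoters and added to the search after the sequences were seen, was found in 5 of the 6 H1 genes, in 1 of the 6 H2A genes and in 2 of the 8 H2B genes, against 6.08% of all. Among the printed H1 promoters it stands in Hist1h1c, Hist1h1e and Hist1h1b and was not found in the window of Hist1h1a. Neither TTTGGCGC nor TTTCCCGC, versions of the E2F site, was in any of the 20, against 1.21% of all. Both strands were searched. Neighbouring genes that are read away from each other share promoter bases, so the 20 windows are not independent, and in Hist2h2ac the run TTTATAAA counts for TATAAA on both strands. A match describes letters and not binding.

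A few genes held most of the histone reads. Hist1h1c gave 21.6% of them, Hist1h1e 15.5%, Hist1h2ao 14.5% and Hist1h4m 10.9%, together 62.5%. By class as the symbols give it, H1 genes gave 45.0% of the reads, H2A 25.0%, H2B 13.7%, H4 12.3% and H3 4.07%. The H2A share holds Hist1h2ao and the H4 share Hist1h4m, whose class is doubtful, as described below. Per length, the highest mean levels over 32 samples were 115 CPM per kb for Hist1h2ao, 83.4 CPM per kb for Hist1h1c, 69.1 CPM per kb for Hist1h4m and 59.0 CPM per kb for Hist1h1e. The next gene was Hist3h2ba, an H2B gene, at 19.8 CPM per kb. The most abundant H3 genes, Hist1h3b and Hist2h3c2, stood at 11.1 and 7.52 CPM per kb, and the less abundant H4 gene, Hist2h4a, at 10.8 CPM per kb.

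At the low end were 3 genes known from the testis and the H2A gene Hist1h2af, with 0.389 CPM per kb. The testis linker histone gene Hist1h1t had 0.429 CPM per kb, Hist1h2aa 0.370 CPM per kb and Hist1h2ba 0.215 CPM per kb. In all, 27 genes had reads in each of the 32 libraries and 6 were at 0 in some. Symbols and loci do not always match: the gene model named Hist1h2ao is 312 bases long on chromosome 4, the same length as the H4 gene Hist2h4a, and RefSeq lists the symbol on chromosome 17. The H4 models Hist2h4 and Hist1h4b, of 312 bases each, also lie on chromosome 4. Other single-exon H2A models are 378 or 393 bases long. The model named Hist1h4m is 396 bases long, whereas the other H4 models are 312 bases long. On chromosome 2 it follows the H2A models Hist2h2aa3 and Hist2h2aa2, of 393 bases each. Hist1h4m is on chromosome 2 and Hist2h3c2 on chromosome 17 in the files, whereas RefSeq has them on chromosomes 17 and 2. The class of these 3 genes therefore rests on the symbol alone, and for Hist1h2ao and Hist1h4m the length goes against it. All H2A and H4 shares, sums, medians and counts by class carry this doubt. Histone genes of a class are close copies, and reads that fit several copies could have been dropped or moved in counting.

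The summed level of the 33 genes was highest in the SVZ. In saline SVZ samples it was 291.9, 522.5, 352.7 and 356.8 CPM (381 ± 98.9, SD, n = 4). Saline NAc had 207 ± 21.1 CPM, saline DG 222 ± 12.2 CPM and saline CA 191 ± 14.3 CPM (SD, n = 4 each). The lowest of the 8 SVZ libraries, METH 2 with 252.4 CPM, was above the highest library of any other region, NAc METH 2 with 250.0 CPM. As a share of all counts the order of these 2 libraries turned, with 0.0240% in SVZ METH 2 and 0.0244% in NAc METH 2, and the other 7 SVZ libraries lay above. The plot of summed levels by class shows the same order for H1, where the lowest SVZ library had 135 CPM and the highest library elsewhere 124 CPM. It does not hold for the other classes. The lowest SVZ library against the highest library elsewhere had 57.8 against 70.0 CPM for H2A, 4.60 against 9.09 CPM for H3 and 31.3 against 36.1 CPM for H4. For H2B, SVZ Sal 1 with 21.6 CPM was the lowest of all 32 libraries.

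**Figure D1:**
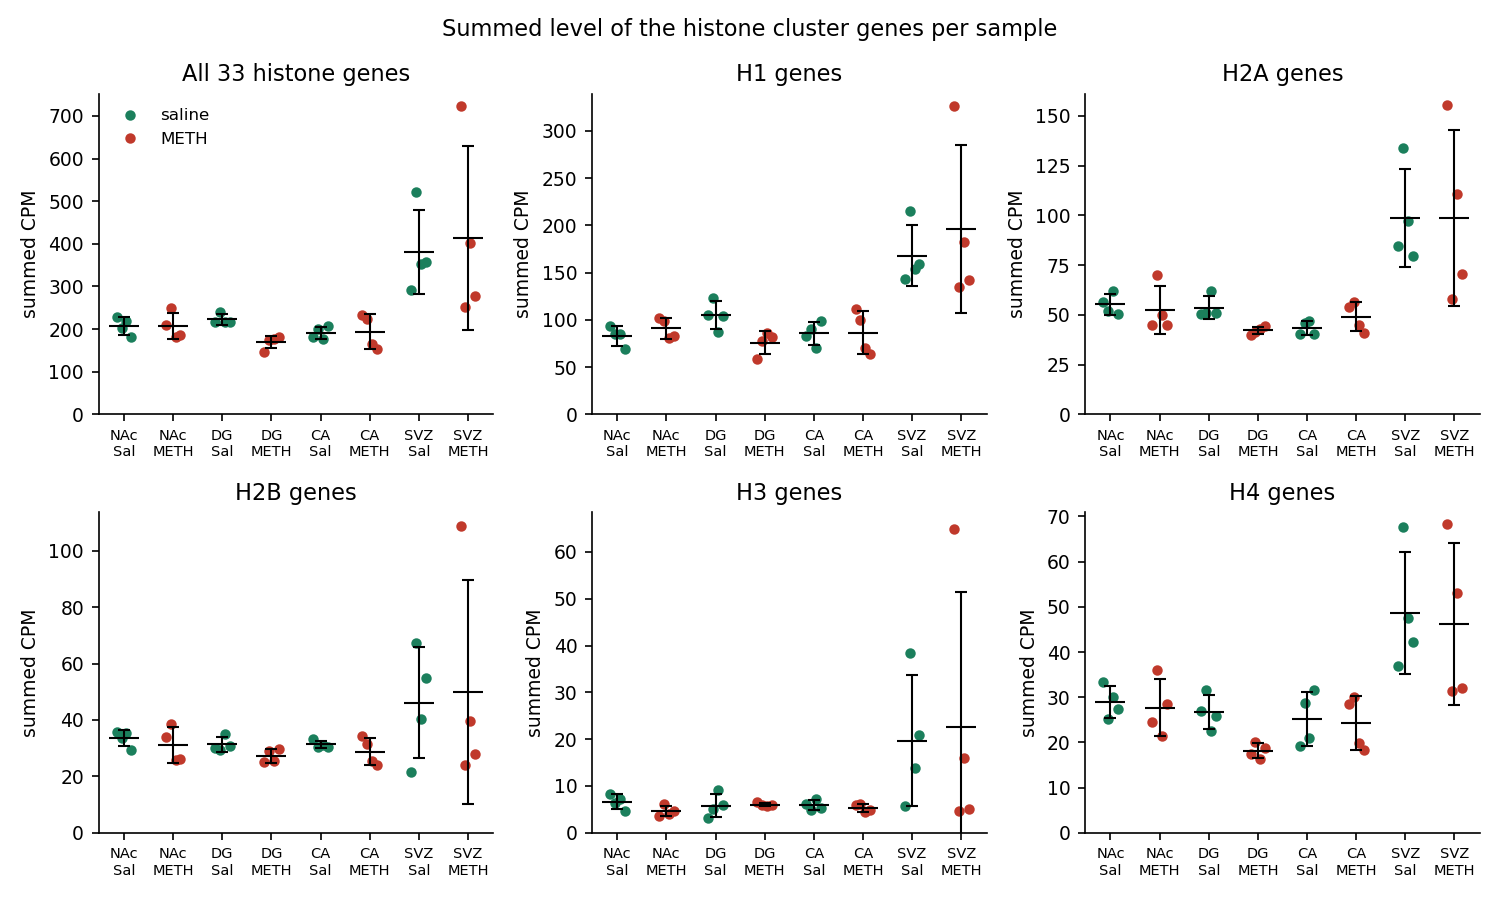
Summed CPM of the 33 histone genes and of each class (y axis) in the 8 groups (x axis), where each point is 1 sample, the horizontal bar the mean and the vertical bar the SD over 4 samples, cut at 0. In the sum over 33 genes all 8 SVZ samples lie above the rest on this scale, but 7 do as a share of all counts, the SVZ METH group ranges from 252.4 to 723.9 CPM, and the DG METH samples (147.1 to 180.2 CPM) lie below the DG Sal samples (215.4 to 240.7 CPM).

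The first comparison asked which genes mark each region in saline animals, by setting the saline samples of a region against the average of the remaining regions with edgeR's quasi-likelihood test. In the SVZ, all 27 histone genes that passed the filter on low counts were higher, against 57% of all genes, with a median log2 fold change of 1.06, against 0.05 over all 15515 genes. At an unadjusted p below 0.05, 21 of the 27 were higher, where 16% of all genes were higher at that p, and 0 were lower. With an adjusted p under 0.01 and a fold above 2, 0 of 27 passed in edgeR, where 0.0645% of all genes did, and 10 of 27 passed in DESeq2, where 1.41% of all genes did. Without SVZ Sal 1, edgeR called 11 of 28 (0.184% of all genes), and without DG Sal 3 it called 1 of 28 (0.547% of all genes). With classes by symbol, all 5 H1 genes, all 8 H2A genes, all 3 H3 genes and both H4 genes passed the unadjusted threshold. Only 3 of 9 H2B genes did. Cell type markers also differed in saline SVZ. All 7 ependymal, 8 thalamic and 8 medium spiny neuron markers were higher (medians 1.95, 2.41 and 2.13), with 4, 8 and 8 at that p. Neuroblast markers were higher in 6 of 8, with 3 at that p. Neural stem and progenitor markers were higher in 7 of 8, with 3 higher and 1 lower at that p. Of these, 1 was called in edgeR, as was 1 thalamic marker. The 8 oligodendrocyte markers were all higher, with a median of 0.55 and 0 at that p. All 5 endothelial and 5 of 6 pyramidal neuron markers were lower, with 3 each at that p. The part of these cells in the histone levels was not tested.

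Hist1h1c, which codes for linker histone H1.2, had the lowest p. It stood at 73.2, 93.9, 80.1 and 79.4 CPM in saline SVZ and at 30.6 to 53.8 CPM in the 12 other saline samples, and the groups did not overlap. The log2 fold change was 0.95 ± 0.11 (SE), with an adjusted p of 0.0020 in edgeR and a fold of 1.93, under the threshold of 2. Hist1h4m, counted as H4 by symbol alone, was the other gene without overlap, at 36.0, 57.1, 43.2 and 34.4 CPM against 17.6 to 29.9 CPM. Its log2 fold change was 0.82 ± 0.15 (adjusted p = 0.0192, edgeR), and 1.13% of all genes lay wholly above in this way. Hist1h2ao stood at 65.6, 55.2, 57.5 and 35.3 CPM in saline SVZ, and SVZ Sal 4 lay within the range of the other regions (log2 fold change 0.81 ± 0.12, adjusted p = 0.0073, edgeR).

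The largest differences were in genes of low level. Hist2h3c2, an H3 gene, stood at 1.27, 16.6, 4.14 and 7.95 CPM in saline SVZ, and at 0.39 to 2.99 CPM in the 12 other saline samples. SVZ Sal 1 thus lay inside the range of the other regions and the others above it. Its log2 fold change was 2.37 ± 0.51 (SE), with an adjusted p of 0.0269 in edgeR. Hist1h3a, also an H3 gene, stood at 0.57, 9.61, 2.5 and 5.13 CPM in saline SVZ and at 0.41 to 1.84 CPM elsewhere, with SVZ Sal 1 again inside that range (2.25 ± 0.47, adjusted p = 0.0258). Without SVZ Sal 2 the log2 fold changes fell to 1.62 for Hist2h3c2 and 1.54 for Hist1h3a. Hist1h2ah, an H2A gene, stood at 2.31, 10.8, 5.06 and 4.90 CPM, with SVZ Sal 1 alone inside the range of 0.99 to 2.41 CPM elsewhere (1.75 ± 0.31, adjusted p = 0.0145). The linker histone gene Hist1h1d stood at 5.66, 21.5, 16.1 and 12.7 CPM, with the same library low (1.16 ± 0.22, adjusted p = 0.0193).

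By class median, the H2B genes differed least, with a median log2 fold change of 0.59 over 9 genes. The medians of the other classes by symbol were 0.99 for H4, 1.13 for H2A, 1.16 for H1 and 2.25 for H3. The H2B genes were not alike. Hist1h2bk had a log2 fold change of 1.53 ± 0.37 (adjusted p = 0.0354, edgeR) and Hist1h2bo of 1.18 ± 0.32 (adjusted p = 0.0493), both above those of Hist1h1c and Hist1h4m. Hist3h2ba stood at 7.46, 17.3, 13.9 and 15.2 CPM in saline SVZ against 13.0 ± 1.66 CPM in the other regions (SD, n = 12). Its log2 fold change of 0.05 (approximate 95% interval −0.28 to 0.37) turned to −0.09 without SVZ Sal 2. Hist2h2be, whose mouse counterpart codes for the variant H2BE of olfactory neurons, had 0.22 ± 0.26. Of the partner that it faces on chromosome 2, the H2A gene Hist2h2ac, the log2 fold change was 1.10 ± 0.33 with an adjusted p of 0.0685.

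**Figure D2:**
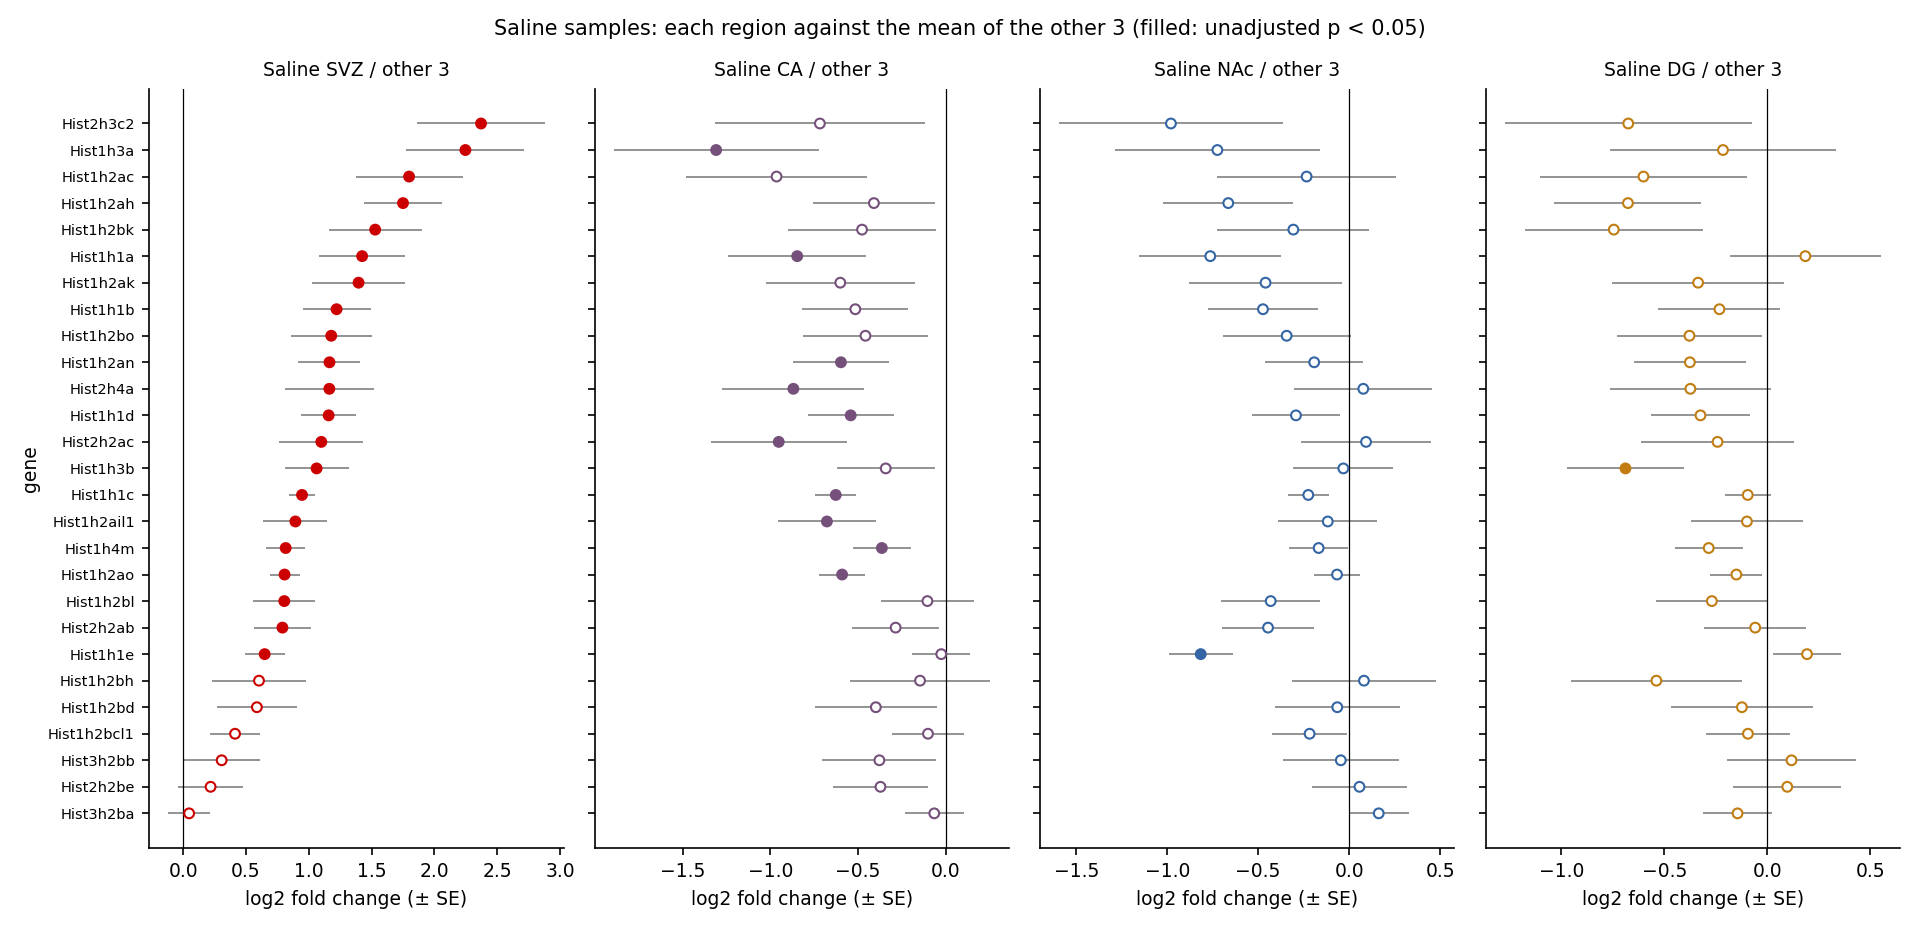
Log2 fold change with its SE (x axis) of the 27 tested histone genes (y axis, ordered by the SVZ value) in each saline region against the average of the remaining regions, where filled points have an unadjusted p under 0.05 in edgeR. All 27 points of the SVZ lie right of 0, with Hist2h3c2 at 2.37 and Hist3h2ba at 0.05, and all 27 points of the CA lie left of 0.

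In the CA, all 27 genes were lower than the mean of the other regions, against 59.9% of all genes, with a median log2 fold change of −0.48 against −0.07 over all genes. At an unadjusted p below 0.05, 10 were lower, where 14.6% of all genes passed as lower, and 0 of 27 were called in edgeR or DESeq2, where edgeR called 0.264% and DESeq2 3.03% of all genes. The count of 10 became 2 of 28 without CA Sal 1 and 5 of 27 with TMM library sizes, where 17.3% and 24.7% of all genes passed in either direction. Hist1h1c stood at 37.7, 38.7, 30.6 and 37.1 CPM (log2 fold change −0.63 ± 0.12, adjusted p = 0.0119). Hist1h2ao stood at 23.2, 27.4, 26.9 and 25.6 CPM, below all 12 samples of the other regions (−0.59 ± 0.13, adjusted p = 0.0194), and 0.651% of all genes lay wholly below in this way. The reference holds the SVZ, and with the SVZ samples left out, 19 of 27 were lower, the median was −0.15 and 3 were lower at an unadjusted p under 0.05, where 12.2% of all genes were.

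In the NAc 0 of 27 genes were called in edgeR or DESeq2, and edgeR called 0% and DESeq2 0.193% of all genes. At an unadjusted p below 0.05 there was 1 gene, Hist1h1e (linker histone H1.4), where 15% of all genes passed. It stood at 25.3, 27.0, 20.6 and 23.3 CPM (24.1 ± 2.79, SD) in saline NAc, with a log2 fold change of −0.82 ± 0.17 and an adjusted p of 0.201 in edgeR. Its adjusted p was 0.00427 in DESeq2 and 0.00892 in edgeR without DG Sal 3, with a fold under 2 in both, and ranged from 0.0710 to 0.551 in the other alternatives. Second by p was Hist1h1c, whose log2 fold change of −0.22 turned to 0.10 without the SVZ samples. In the DG, too, 0 of 27 were called in either tool, beside 0% of all genes in edgeR and 0.0193% in DESeq2, and 1 gene had an unadjusted p under 0.05, where 6.78% of all genes did. This was Hist1h3b, an H3 gene, at 1.88, 4.11, 4.26 and 2.14 CPM (−0.69, adjusted p = 0.695). DG Sal 1 and 4 were low and the other two within the range of other regions.

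The 8 SVZ libraries were not alike. Of the 28 histone genes tested over all samples, 27 were above the highest of the 24 NAc, DG and CA libraries in SVZ Sal 2, 18 in Sal 3, 21 in Sal 4, 27 in METH 1 and 20 in METH 3. The counts were 5 in Sal 1, 3 in METH 2 and 5 in METH 4, the libraries with the high thalamic markers. Below the lowest of those 24 libraries were 5 genes in Sal 1, 2 in METH 2 and 2 in METH 4. In each of the other SVZ libraries 0 were below. Over all 16122 genes the share above was highest in those same 3 libraries (13.2% to 15.7%) and 5.94% to 11.9% in the others. Hist1h1b, which codes for linker histone H1.5, had 22.8, 9.05, 12.9, 35.7 and 11.5 CPM in Sal 2, Sal 3, Sal 4, METH 1 and METH 3, and 4.62, 3.93 and 4.22 CPM in Sal 1, METH 2 and METH 4. The latter values lie in the range of the other regions, which was 2.37 to 7.26 CPM.

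Hist1h1c differed from this, with 73.2, 70.2 and 74.2 CPM in Sal 1, METH 2 and METH 4, all above the highest value elsewhere of 55.7 CPM. In these libraries oligodendrocyte markers summed to 19451, 26780 and 28383 CPM, against 2407 to 14997 CPM in all other libraries. Mitotic genes summed to 47.2, 50.9 and 48.8 CPM there, against 86.3 to 367 CPM in the other SVZ libraries. The part of these markers in the histone levels was not tested. The map of the genes by sample shows both patterns.

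**Figure D3:**
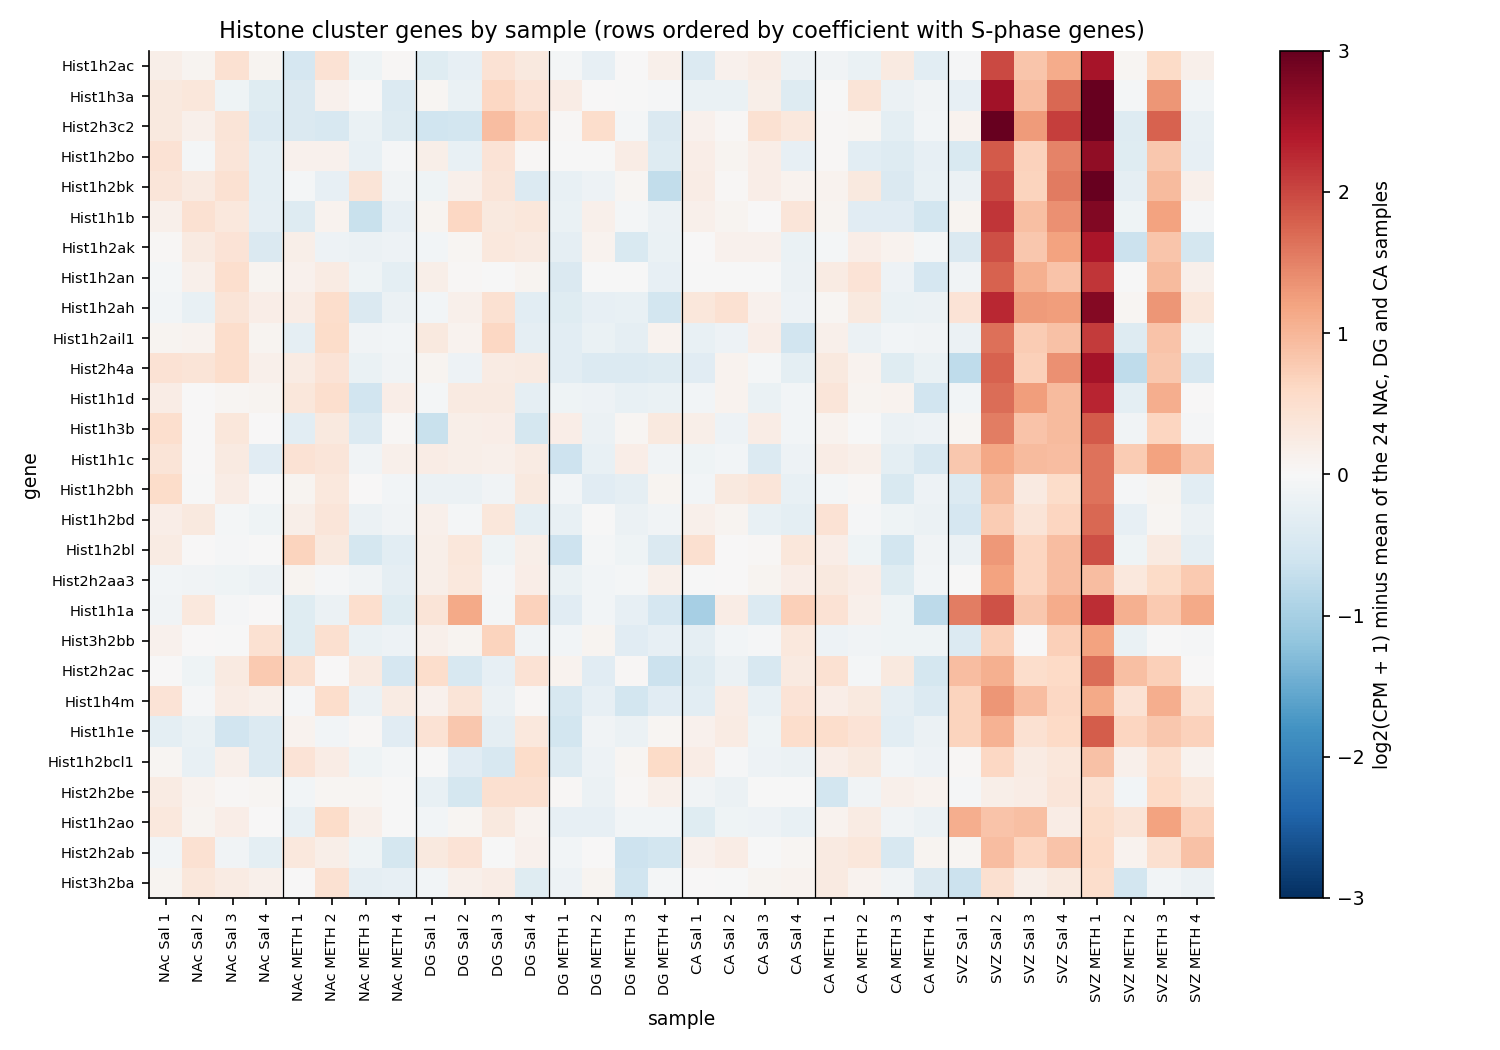
Each cell is log2(CPM + 1) of a histone gene (rows, from the highest coefficient with S-phase genes at the top to the lowest) in a sample (columns), minus the mean of the 24 NAc, DG and CA samples, with colours capped at 3. SVZ Sal 2 and METH 1 lie above the range of the other regions in 27 of the 28 rows. Sal 1, METH 2 and METH 4 are above that range in 3 to 5 rows each, of which Hist1h1c is the row common to all of them. They are below it in 5, 2 and 2 rows.

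METH was then compared with saline within each region. By the threshold of an adjusted p under 0.01 and a fold above 1.5, edgeR and DESeq2 called 0 histone genes in each of the 4 regions, and edgeR called 0% of all genes in each. DESeq2 called 1.24% of all genes in the DG, 0.0684% in the CA, 0.0203% in the NAc and 0.0128% in the SVZ. The counts at an unadjusted p below 0.05 were 9 of 27 genes in the DG (12.8% of all genes), 2 of 27 in the NAc (3.39%), 1 of 24 in the CA (7.16%) and 0 of 29 in the SVZ (2.58%).

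In the DG most histone genes had lower levels after METH, but 0 of 27 passed the adjusted threshold (lowest adjusted p = 0.219 in edgeR, 0.0471 in DESeq2 and 0.0548 with 2 RUVr factors). The summed level was 215.4, 240.7, 216.4 and 217.3 CPM in saline and 147.1, 174.0, 176.8 and 180.2 CPM in METH, and the groups did not overlap. Of 27 genes, 25 had a negative log2 fold change, against 52% of all genes, with a median of −0.41 against −0.01 over all genes. All 9 genes at an unadjusted p below 0.05 were lower, where 6.42% of all genes were lower at that p. They were 3 of 5 H1 genes, 3 of 8 H2A genes, 1 of 9 H2B genes, 0 of 3 H3 genes and both H4 genes, with Hist1h2ao counted as H2A and Hist1h4m as H4 by symbol alone.

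Of the DG genes, 3 had groups that did not overlap, as did 3.48% of all genes in this direction. Hist1h4m, counted as H4 by symbol alone, stood at 24.4, 29.5, 19.4 and 22.9 CPM in saline (24.1 ± 4.20, SD). In METH it stood at 15.7, 18.6, 14.8 and 17.3 CPM (16.6 ± 1.69, SD). Its log2 fold change was −0.53 ± 0.15 (SE, adjusted p = 0.219, edgeR). The lowest saline sample, Sal 3, was only just above the highest METH sample.

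Hist1h1a, which codes for linker histone H1.1, stood at 3.52, 6.56, 2.29 and 4.60 CPM in saline and 1.72, 2.24, 1.93 and 1.44 CPM in METH. Its log2 fold change was −1.20 ± 0.33 (SE, adjusted p = 0.221), the largest in the DG. Sal 2 was the highest, and Sal 3 nearly touched METH 2. Hist2h4a, the other gene counted as H4, stood at 2.58, 2.01, 2.99 and 3.04 CPM in saline and 1.72, 1.52, 1.55 and 1.57 CPM in METH. Its log2 fold change was −0.74 ± 0.21 (adjusted p = 0.230, edgeR).

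Among the abundant genes, Hist1h1e stood at 42.5, 55.2, 25.7 and 39.2 CPM in saline and 20.8, 28.9, 27.5 and 32.2 CPM in METH (−0.57 ± 0.23, adjusted p = 0.359), with Sal 3 inside the METH range. Hist1h2ao stood at 28.4, 31.4, 37.3 and 32.6 CPM against 25.5, 25.5, 28.5 and 28.4 CPM (−0.26 ± 0.11, adjusted p = 0.378), with Sal 1 at the level of the highest METH samples. Hist1h1c, the most read of all, had 48.2, 46.8, 45.9 and 49.0 CPM against 26.4, 35.3, 47.5 and 38.4 CPM (−0.36 ± 0.17, adjusted p = 0.416). There METH 3 lay within the saline range and the other METH samples below it. On the higher side were only Hist1h3b (0.33 ± 0.31) and the H2B gene Hist1h2bcl1 (0.09 ± 0.34), neither with an unadjusted p under 0.05, and Hist1h3b was at −0.23 with the folder named in the headers as a covariate.

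Folders and treatments were not balanced in the DG, since DG Sal 1, 2 and 4 came from a folder that held no DG METH library. In the folder that held both, Sal 3 had a summed level of 216.4 CPM and METH 1 and 2 had 147.1 and 174.0 CPM. A folder term therefore sets Sal 3 alone against METH 1 and 2, with the spread taken from all DG libraries. METH 1 and 2 are among the libraries with crossed numbers, so this fit rests on their labels. By the treatment that the numbers have in the NAc and CA, METH would hold Sal 1 and 2 (215.4 and 240.7 CPM). Saline would then hold METH 1 and 2, and the summed levels of the groups would overlap. Which assignment is right was not tested. With the folder as a covariate 25 of 27 genes were lower, the median was −0.53 and 5 genes were lower at an unadjusted p under 0.05, as were 5.41% of all genes. Without the 4 libraries with crossed numbers, 25 were lower, the median was −0.48 and 3 genes passed as lower, as did 2.82% of all genes. In that fit METH 3 and 4 came from a folder that Sal 3 and Sal 4 did not share, so treatment and folder cannot be told apart. Leaving out 1 library at a time gave 3 to 7 genes as lower, where 4.02% to 7.12% of all genes were, with 3 without Sal 2, 4 without METH 1 or METH 4, and 5 without Sal 1 or METH 3.

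Markers of other cell types were compared between the same DG groups. The 8 astrocyte markers summed to 2930 to 3721 CPM in saline and 4107 to 4367 CPM in METH, without overlap, and 6 of the 8 had a positive log2 fold change, 2 of them at an unadjusted p below 0.05. The 8 neuroblast markers summed to 346 to 542 CPM in saline and 376 to 461 CPM in METH, and 7 of them had a negative log2 fold change, with a median of −0.62 and 0 at an unadjusted p below 0.05. Of 7 tested granule neuron markers 6 had a positive log2 fold change, with a median of 1.51, and 2 were higher at that p. Thalamic markers were on the higher side in 6 of 8, with a median of 0.50 and 2 at that p. All 8 microglia markers were on the higher side, with a median of 0.14 and 0 at that p. All 8 medium spiny neuron markers were on the lower side, with a median of −2.16 and a sum of 2011 CPM in Sal 3. Choroid plexus markers summed to 2157 CPM in Sal 4 and 6383 CPM in METH 3. The part of these cells in the histone levels was not tested.

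**Figure D4:**
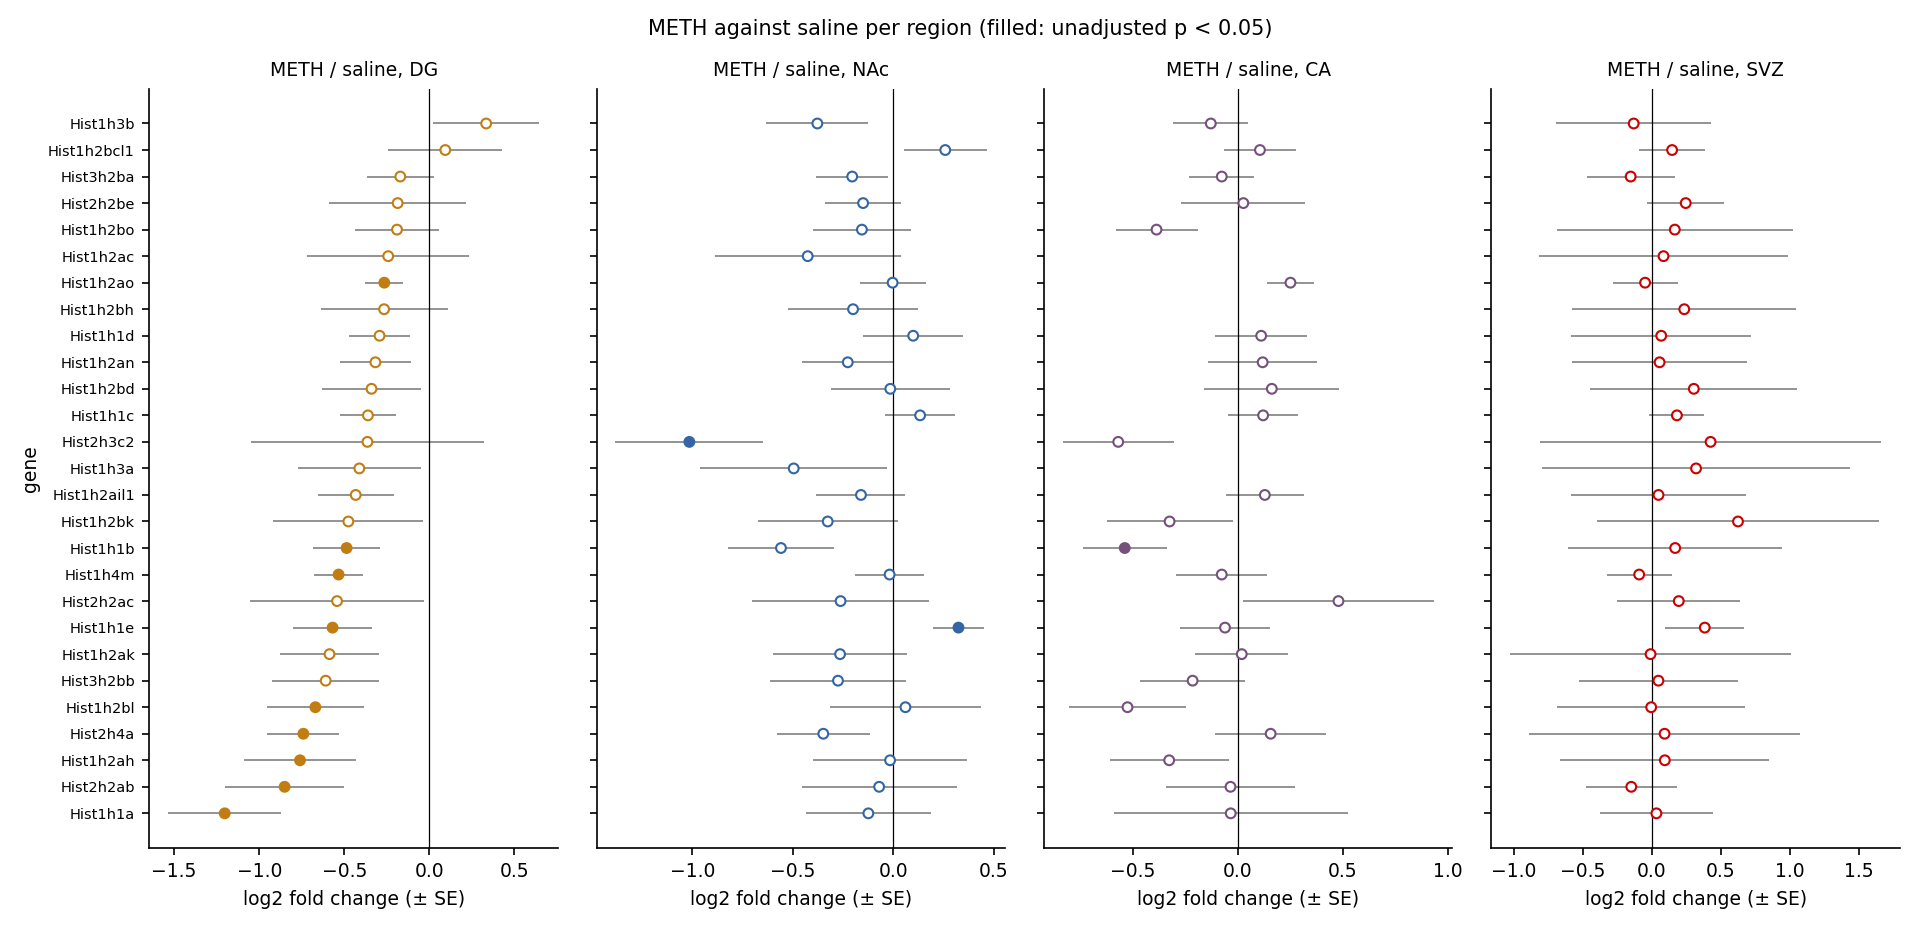
Log2 fold change of METH against saline with its SE (x axis) for the 27 histone genes tested in the DG (y axis, ordered by the DG value) in the DG, NAc, CA and SVZ, where filled points have an unadjusted p under 0.05 in edgeR and genes not tested in a region have no point. In the DG 25 of 27 points lie left of 0 and 9 are filled. The common coefficient of variation between samples was largest in the SVZ fit, at 0.373 against 0.199 to 0.311 in the other regions.

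In the NAc 22 of 27 genes had a negative log2 fold change, against 42.2% of all genes, with a median of −0.16. The H3 gene Hist2h3c2 stood at 1.58, 1.34, 1.74 and 0.59 CPM in saline and 0.56, 0.52, 0.83 and 0.60 CPM in METH (−1.02 ± 0.37, adjusted p = 0.999, edgeR), and Sal 4 lay among the METH samples. Hist1h1e had the opposite sign, with 25.3, 27.0, 20.6 and 23.3 CPM in saline and 33.4, 29.6, 31.9 and 24.5 CPM in METH (0.32 ± 0.13, adjusted p = 0.999). With the folder as a covariate 13 of 27 were lower and the median was 0.06. Without NAc METH 3, the library low in medium spiny neuron markers, 1 of 27 genes passed the unadjusted threshold, as did 4.83% of all genes. In the folder that held both treatments, the summed level was 219.9 and 180.3 CPM in saline and 209.0 and 250.0 CPM in METH.

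In the CA 13 of 24 genes were lower, against 48.9% of all genes, and the median was −0.04. Hist1h1b stood at 4.94, 4.68, 4.43 and 5.93 CPM in saline and 4.68, 3.23, 3.24 and 2.63 CPM in METH (−0.54 ± 0.20, adjusted p = 0.669). Hist1h2ao had 23.2, 27.4, 26.9 and 25.6 CPM against 32.4, 36.3, 27.8 and 26.4 CPM (0.25 ± 0.11, adjusted p = 0.705), and the groups overlapped in both genes. The summed level split by folder within METH: METH 1 and 2 had 233.6 and 224.3 CPM beside 206.5 CPM in the saline sample of their folder, and METH 3 and 4 had 165.1 and 152.3 CPM beside 176.8 CPM in that of theirs. CA Sal 1 and 2 came from a source named merged, which held no METH library, and had 182.1 and 200.4 CPM.

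In the SVZ 21 of 29 genes had a positive log2 fold change, against 52.9% of all genes, with a median of 0.09. The summed level was 723.9, 252.4, 401.4 and 277.9 CPM in METH, and both the highest and the lowest SVZ library were METH. The lowest p was that of Hist1h1e, with 50.2, 65.1, 43.3 and 47.6 CPM in saline and 112, 49.2, 55.7 and 50.8 CPM in METH. Its log2 fold change was 0.38 ± 0.29 (approximate 95% interval −0.18 to 0.94, adjusted p = 0.979, edgeR). Only METH 1 lay above the saline range. The direction turned with the processing, since with 2 RUVr factors 8 genes were higher and 21 lower, with a median of −0.11. With METH libraries of 1 library number summed, so that METH held 2 samples, 21 of 29 were higher, the median was 0.05 and 0 had an unadjusted p under 0.05, as did 1.09% of all genes. The median was −0.75 without METH 1 and 0.43 without Sal 2. Without Sal 1, METH 2 and METH 4, the median was 0.51 and 27 of 30 genes were higher, 1 of them at an unadjusted p below 0.05, where 3.01% of all genes were higher at that p.

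The METH effect averaged over the regions was tested for 28 genes, and 0 were called in edgeR or DESeq2 (0% of all genes in edgeR, 0.0062% in DESeq2) and 0 had an unadjusted p under 0.05 in either tool, where 7.83% of all genes did in edgeR. The lowest p-values were those of Hist1h4m (−0.19 ± 0.11, adjusted p = 0.689) and Hist2h2ab (−0.28 ± 0.18, adjusted p = 0.721). In total 24 of 28 were lower, against 47.7% of all genes, with a median of −0.15. Without SVZ METH 1, 27 of 28 were lower and 12 of these had an unadjusted p under 0.05, where 4.95% of all genes were lower at that p. The difference of the METH effect between regions passed an unadjusted p of 0.05 in 1 of 28 genes, Hist1h1e (adjusted p = 0.620), where 7.74% of all genes did, and 0 were called in edgeR or DESeq2, beside 0% of all genes in edgeR and 0.161% in DESeq2. The second lowest p was that of Hist1h1c (adjusted p = 0.848). A METH effect particular to the DG was therefore not shown for any histone gene.

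The levels of the histone genes were set beside those of DNA replication genes across the 32 samples. Pearson's coefficient of log2(CPM + 1) with the mean over the S-phase list was above 0.5 in 26 of 28 genes, with a median of 0.76 and a range of 0.35 to 0.91. The samples share regions, folders and perhaps rats, and the coefficients are a description. They rested on the SVZ: over its 8 samples 25 of 28 exceeded 0.5, over the 24 samples of the NAc, DG and CA 3 did, with a median of 0.09, and without the 2 samples farthest from the median 15 did. By Spearman's coefficient 6 did over 32 samples.

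The highest Pearson coefficients were 0.91 each for the H2A gene Hist1h2ac and the H3 genes Hist1h3a and Hist2h3c2, and these were also the genes with the largest difference in saline SVZ. The lowest were Hist3h2ba with 0.35, Hist2h2ab with 0.49 and Hist1h2ao with 0.52. With each group's mean removed, Hist2h3c2 kept 0.91 and Hist1h2ao had −0.20. The place of Hist1h2ao depends on the coefficient: by Spearman's it had 0.64, the third highest of the 28 genes, and its Pearson coefficient over the 24 samples of the NAc, DG and CA was 0.31. Its highest SVZ values, 71.0 CPM in METH 3 and 65.6 CPM in Sal 1, were not in METH 1, the library with the highest S-phase level.

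**Figure D5:**
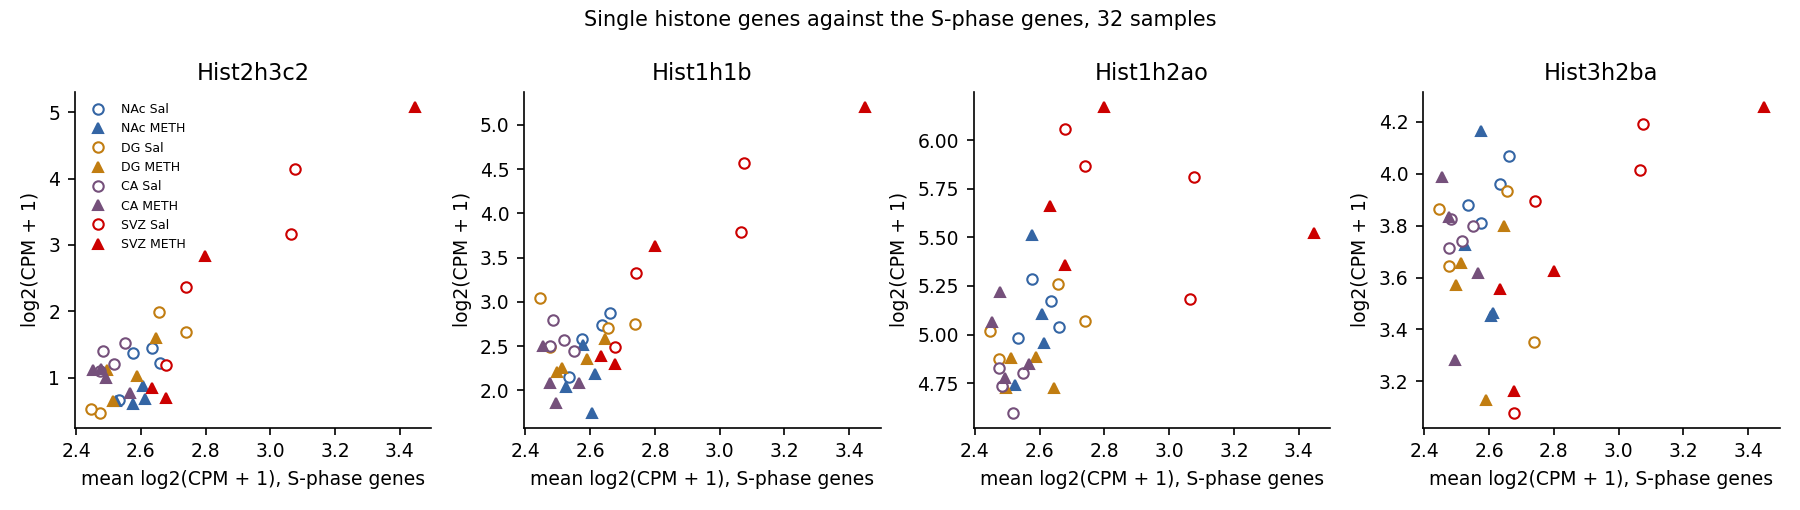
Log2(CPM + 1) of Hist2h3c2, Hist1h1b, Hist1h2ao and Hist3h2ba (y axis) against the mean log2(CPM + 1) of the S-phase genes (x axis) in 32 samples, coloured by region, open circles for saline and filled triangles for METH. Hist2h3c2 climbs with the S-phase genes in the SVZ samples (coefficient 0.93 over these 8 and 0.91 over all 32), whereas Hist1h2ao has its highest values in METH 3 and Sal 1 (71.0 and 65.6 CPM), not in the samples with the highest S-phase levels, and Hist3h2ba has a coefficient of 0.35.

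Genes that act with these histones were taken from lists. At an unadjusted p below 0.05 in saline SVZ, 16% of all genes passed as higher and 9.45% as lower, whereas 19 of 35 tested S-phase genes were higher and 1 was lower. The replication factor gene Gins3 was called, at 7.09 ± 1.47 CPM against 3.34 ± 1.11 CPM (SD, n = 4 and 12), with a log2 fold change of 1.14 and an adjusted p of 0.0059. Of the mitotic genes 16 of 23 were higher and 0 lower. Among histone chaperones 9 of 25 were higher and 0 lower, with Nasp, a carrier of H1 and H3 with H4, at 22.6 ± 5.28 against 14.8 ± 1.18 CPM (log2 fold change 0.60, adjusted p = 0.0192), and Chaf1a, a subunit of the assembly factor CAF-1, at 0.52 (adjusted p = 0.0441).

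Of 18 tested factors that make and process histone mRNA, 3 passed as higher and 2 as lower in saline SVZ at an unadjusted p below 0.05. Lsm11, a part of the U7 snRNP that cuts histone pre-mRNA, had a log2 fold change of −1.46 in the SVZ (adjusted p = 0.0560) and of 1.77 in the CA (adjusted p = 0.0138), which shares samples with the former comparison. Of 9 replication-independent histone genes, which are expressed throughout the cycle, 4 were higher in saline SVZ, led by H2afv (0.67, adjusted p = 0.0258) and H2afy (0.36, adjusted p = 0.0280). In saline CA, 10 of 35 S-phase genes, 4 of 9 replication-independent histones, 3 of 25 chaperones and 4 of 18 processing factors were lower at that p, where 14.6% of all genes were lower, and 2, 1, 0 and 2 were higher, where 11.1% of all genes were.

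After METH in the DG, an unadjusted p below 0.05 was reached by 6.42% of all genes as lower and by 6.35% as higher. Here 2 of 9 replication-independent histone genes were lower at that p and 0 higher. H2afy2, which codes for a macroH2A, stood at 11.3 ± 1.47 against 17.3 ± 2.73 CPM (SD, n = 4 each), with a log2 fold change of −0.61 and an adjusted p of 0.194. H2afx, the variant that is phosphorylated at DNA breaks, stood at 14.6 ± 1.35 against 20.1 ± 2.82 CPM (−0.46, adjusted p = 0.235), and neither gene's groups overlapped. Of 18 processing factors 3 were lower and 1 higher, with Cstf2 at −0.42 (adjusted p = 0.312), and of 25 chaperones 2 were lower and 0 higher. In the cell cycle lists, of 33 S-phase genes 2 were lower and 1 higher, and of 21 mitotic genes 16 had a negative log2 fold change, with a median of −0.12, whereas those at that p were 2 higher ones, Foxm1 (0.60, adjusted p = 0.309) and Mki67 (0.70, adjusted p = 0.372), and 0 lower.

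In the CA and NAc the mitotic list held the lowest p-values after METH. Top2a, the topoisomerase of dividing cells, stood at 1.10 ± 0.158 against 3.53 ± 0.494 CPM in the CA (−1.67 ± 0.20, adjusted p = 0.0887, edgeR) and at 1.03 ± 0.394 against 3.35 ± 1.36 CPM in the NAc (−1.67 ± 0.41, adjusted p = 0.999). In both regions 3 of 20 mitotic genes were lower and 0 higher at an unadjusted p below 0.05, where 2.79% of all genes in the CA and 0.968% in the NAc were lower. In the SVZ 0 of 24 mitotic genes, 1 of 37 S-phase genes, 1 of 25 chaperones, 0 of 18 processing factors and 0 of 10 replication-independent histones passed that p, as did 2.58% of all genes.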

How the data were processed

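Total RNA was depleted of rRNA before library construction, and per the methods of the study the mRNA isolation step of the kit was left out, so that poly(A)+ RNA, which lacks most replication-dependent histone mRNA, was not selected. Per the submitters' processing notes and the file headers, the authors trimmed reads with cutadapt 2.7, checked them with FastQC 0.11.4, mapped them to rn6 with STAR 2.5.2b and counted them per gene name with featureCounts 1.6.3, without regard to strand and at a mapping quality of at least 10. The deposited values are unnormalized counts per gene and sample, and the headers name an Ensembl annotation whereas the methods of the study name UCSC genes. Without strand, reads of overlapping genes cannot be told apart.

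Testing was done with edgeR 4.0.16 under R 4.3.3 (filterByExpr, upper-quartile library sizes, quasi-likelihood test, Benjamini-Hochberg adjustment over all genes tested), with DESeq2 1.42.0 as an alternative and limma 3.58.1 loaded by edgeR. Python 3.11.15 served for tables (pandas 2.3.3, numpy 2.4.6) and plots (matplotlib 3.10.9, scipy 1.17.1 for coefficients). CPM are counts per 1000000 of the upper-quartile library size. The scripts were tested on simulated data. Alternatives were TMM sizes, no filter, 2 RUVr factors, the folder named in the file headers or the replicate number as a term, SVZ METH libraries of 1 library number summed, pooled references, a fit of all 32 samples and leaving out libraries. The members and lists were chosen with earlier results of these data known. Named genes were the 2 highest per length in each class, those with the lowest p in each comparison, the 3 highest and 3 lowest coefficients with S-phase genes and 2 genes per list and comparison. Hist1h1b in single SVZ libraries, Hist2h2be, Hist2h2ac, Hist1h2bk and Hist1h2bo in the SVZ comparison, the facing gene pairs and the least abundant genes were named after their values were seen.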

Additional observations from a re-analysis of the deposited data

Results flagged for a closer look

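In 160 groups of 4 samples (the summed level and 19 named genes in 8 groups), 8 held a sample farther from the rest than Dixon's limit, which is 5%, and chance gives about 1 in 20. The library with most of these was SVZ METH 1, with 112 CPM of Hist1h1e (others 49.2 to 55.7), 10.6 CPM of Hist1h2bl (1.55 to 2.67), 15.1 CPM of Hist1h1a (4.96 to 6.62) and 8.47 CPM of Hist1h2ac (0.776 to 1.52). The summed level was 240.7 CPM in DG Sal 2, against 215.4 to 217.3 CPM in the other DG saline samples. In NAc Sal 3, Hist1h2ail1 stood at 12.1 CPM, against 8.66 to 8.75 CPM. Hist1h2bl stood at 2.64 CPM in NAc Sal 1, against 2.00 to 2.07 CPM, and Hist1h3a at 1.17 CPM in DG METH 1, against 0.817 to 0.867 CPM. Hist2h2aa2, left out of the 33 genes by the limit on reads, had 29 reads over the 32 libraries.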

How the results depend on the processing

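The following are counts of histone genes at an unadjusted p below 0.05, each with the share of all genes in the same fit. For METH in the NAc the count of 2 (3.39%) became 1 with the folder as a covariate (1.88%) and 0 in the fit of all 32 samples (2.7%). In the DG the count of 9 (12.8%) became 5 (11%), 3 without DG Sal 1 and 2 and DG METH 1 and 2 (6.72%) and 4 with all 32 samples (14.6%). In the CA the count of 1 (7.16%) became 2 with the folder (5.32%) and 0 with all 32 samples (3.65%), and in the SVZ the 0 (2.58%) became 1 without Sal 1, METH 2 and METH 4 (6.73%), a choice made after seeing the data. The gene whose METH effect differed between regions was lost (0, 4.07%) with the folder. In saline NAc the 1 (15%) became 2 with TMM sizes (15%), 3 in DESeq2 (16.3%), 2 without a filter (11.5%) and 3 without SVZ samples (23.8%, also chosen after seeing the data), and in saline DG the 1 (6.78%) became 0 with a pooled reference (4.12%). In saline CA the 10 (25.7%) became 5 with TMM sizes (24.7%), 6 without a filter (18.4%), 5 pooled (23.6%) and 3 without SVZ samples (21.9%). In saline SVZ DESeq2 called 10 (1.41%) against 0 in edgeR (0.0645%). The cause of these shifts was not tested.

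Leaving out 1 library gave 0 to 4 genes for METH in the NAc (2.22% to 5.08% of all genes), 3 to 7 in the DG (8.16% to 13.9%), 0 to 3 in the CA (4.20% to 11%), 0 to 12 for the average (6.36% to 14.2%, with 12 without SVZ METH 1) and 0 to 1 for the difference between regions (5.35% to 14.5%). It gave 1 to 7 in saline NAc (8.81% to 20.2%) and 0 to 6 in saline DG (3.96% to 14.3%), with 7 and 6 without SVZ Sal 1. In saline CA it gave 2 to 13 (17.3% to 30.5%, 13 without SVZ Sal 1, 2 without CA Sal 1), and in saline SVZ 18 to 25 (19.8% to 27.7%). By the adjusted p and the fold, 0 to 11 genes were called in saline SVZ, where 0.00634% to 0.547% of all genes were. Signs turned for Hist1h3b in the DG (−0.23 with the folder), Hist1h2bcl1 in the DG (−0.17 to 0.39 on leaving out 1 library, and below 0 without Sal 2, Sal 3 or METH 4), Hist1h1c in the SVZ (−0.024 to 0.29, and below 0 without METH 1), Hist2h2ab in the SVZ (−0.35 to 0.014, and above 0 without METH 2), and Hist1h1c in saline NAc (0.10 without the SVZ samples). The count of coefficients above 0.5 was 26, and 3 without the SVZ, 15 without the farthest samples and 6 by Spearman's coefficient.

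With the replicate number as a block, 1 gene passed for METH in the NAc (2.00% of all genes), 2 of 24 in the CA (7.74%), 7 in the DG (12.3%) and 7 of 27 in saline CA (25.6%), and the median in the SVZ was −0.26. In no region did every same-numbered METH and saline pair deviate together (correlations of −0.78 to 0.39 in the SVZ, −0.22 to 0.40 in the DG, −0.29 to 0.30 in the NAc and −0.29 to 0.41 in the CA). The mixture of cells also varied between libraries, so these correlations cannot decide whether such pairs share more than a number. Saline NAc and CA samples of 1 number, which also share their header number, correlated at 0.11 to 0.25, but saline NAc and METH CA samples, which do not, at 0.23 to 0.27. Whether header numbers mark rats is not given in the sources used here. A folder covariate was not possible in the SVZ, whose libraries come from 1 folder. At this depth, genes under 1 CPM rest on few reads.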

Other observations

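In all, 5 pairs of histone genes lie within 1000 bases of each other and are read away from each other, so that the promoters of a pair lie in the bases between them. The H2A gene Hist1h2ah and the H2B gene Hist1h2bl, 293 bases apart, had like mean levels of 6.73 and 6.93 CPM per kb over 32 samples and a Pearson coefficient of 0.84. Hist1h2bo and Hist1h2ac, 202 bases apart, had 5.06 and 3.18 CPM per kb and a coefficient of 0.88. The gene model of Hist1h2bo has 4 exon blocks between bases 44756555 and 44793927 of chromosome 17. Its level and coefficient cover all of these blocks, not only the one that faces Hist1h2ac. Hist1h2bh and Hist1h2ai, 296 bases apart, had 2.71 and 1.40 CPM per kb and a coefficient of 0.84. The pair Hist2h2ac and Hist2h2be, 319 bases apart, had 4.74 and 4.15 CPM per kb but a coefficient of only 0.29, and −0.05 with group means removed. The testis genes Hist1h2aa and Hist1h2ba, 264 bases apart, were near 0 in these samples. The coefficients are descriptions over samples that share regions and folders, and most of the range behind them lies in the SVZ libraries.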
